A study of Mus musculus with 6 samples.

Results

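The cardiac chamber isoform genes were 10 genes whose products are used unequally by the chambers of the heart. Of these, 6 were classed as atrial (Myl7, Myl4, Nppa, Mybphl, Myh6 and Bmp10) and 4 as ventricular or shared (Myl2, Myl3, Myh7 and Nppb). They were chosen by name, together with their classes, with earlier results of the same arrays known, so their differences between genotypes are given as a description without a test. The array carried 15 probes for the 10 genes, of 45281 probes and 19053 named genes in all, with 9 probes in the atrial class and 6 in the other.

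RNA of thoracic aorta was measured on Illumina mouse bead arrays, on which the brightness of a probe's beads reports the level of its transcript. The 3 NDST samples came from mice with Ndst1 deleted by a Cre recombinase under the SM22α promoter (SM22αCre+Ndst-/-). The 3 WT samples came from mice without this Cre and with intact alleles (SM22αCre-Ndstwt/wt), so that presence of Cre also separates the genotypes. All 6 samples were from male C57Bl/6 mice aged 3-4 months. Whether each sample was 1 mouse or a pool is not stated in the labels. The SM22α promoter is active in smooth muscle of adult arteries and, for a time, in the embryonic heart, so deletion by this Cre need not be limited to smooth muscle.

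The atria and the ventricles of the heart contract with partly different proteins. Myosin, the motor of the muscle fibre, has heavy chains that bind actin and light chains that tune them. In the mouse, Myl7 and Myl4 encode the regulatory and essential light chains of the atrium, while Myl2 and Myl3 encode those of the ventricle and of slow skeletal muscle. Myh6, the fast alpha heavy chain, is the main heavy chain of both atria and ventricles in adult mice, and Myh7, the slow beta chain, belongs to the fetal ventricle and slow skeletal muscle, so that the class "atrial" is a name more than a property for Myh6. Mybphl is a relative of cardiac myosin-binding protein C made mainly in atria. Nppa and Nppb encode the natriuretic peptides ANP and BNP, the first stored chiefly in atria and the second made in both chambers under load. Bmp10 is a growth factor that the adult heart makes in the right atrium.

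The arrays were alike in brightness. Their median non-normalized intensity was between 130.0 and 141.5, and between 17549 and 18619 probes were detected on each (detection p-value under 0.05). Values in log2 were background-corrected and quantile-normalized, and 17954 probes detected on at least 3 of the 6 arrays were tested. The correlation over these probes was 0.991 to 0.993 between arrays of 1 genotype and 0.983 to 0.984 between genotypes, and no library stood apart. Of the tested probes 7.44% passed an adjusted p of 0.05, 3.12% downwards, and 58.1% of those that passed were higher in NDST, against 82.9% after scaling arrays to 1 median and 88.9% for arrays left unnormalized. The smooth muscle markers of the aorta were all detected. All 8 were present on every array, their summed intensity was 49230 to 53189 on NDST arrays and 49242 to 51237 on WT arrays, and 1 of the 8, Lmod1, fell (-0.31 ± 0.07, limma adjusted p = 0.0472). Acta2, the smooth muscle actin, differed by 0.02 ± 0.07 (adjusted p = 0.875) by its brightest probe, which made up most of the summed intensity. Its 5 probes disagreed, from -0.63 to 0.35. The probe at -0.63 was dim, at 168 to 175 in NDST and 175 to 207 in WT, and did not pass. The other probes lay between 0.02 and 0.35, and the probe at 0.35 ± 0.08 passed upwards. A dimmer probe of Myocd, named after its values were seen, also passed upwards, at 0.37 ± 0.07. Tagln, the gene from which the SM22α promoter comes, named after its values were seen, differed by 0.13 ± 0.08 (adjusted p = 0.348). Differences are log2 values, NDST minus WT, with limma's standard error, n = 3 arrays per genotype. In tissue RNA, fewer cells of a type and less RNA per cell cannot be told apart.

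Of the 15 probes, 8 were detected on enough arrays to be tested, from 7 of the 10 genes. The atrial genes with such a probe were Myl7, Myl4, Nppa, Mybphl and Myh6, and the ventricular or shared genes were Myl2 and Myl3. Bmp10, Myh7 and Nppb had none. On each of the 8 probes the 3 NDST values lay above the 3 WT values. Over all tested probes 16.1% did so and 32.4% were free of overlap in either direction. Of the 8, the dimmer probe of Myh6, was detected on NDST arrays only and so entered through the genotype in which it was high. In the fit across all probes the 5 atrial genes and Myl3 were past an adjusted p of 0.05 upwards, and Myl2 was not, with 4.61% of the 10076 tested genes past it. The genes were chosen on these same differences, so nothing is read from these counts. Myl3 was not past it without NDST replicate 1, NDST replicate 3 or WT replicate 3 (differences of 0.80, 0.76 and 0.82), and Myl2 was past it in 8 of 20 settings. The differences were far from equal: those of the 5 atrial genes were 2.85 to 4.16, a median of 3.80 or 13.9-fold, and those of Myl3 and Myl2 were 0.83 and 0.30, a median of 0.57 or 1.48-fold. The median of all tested genes was 0.01.

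**Figure D1:**
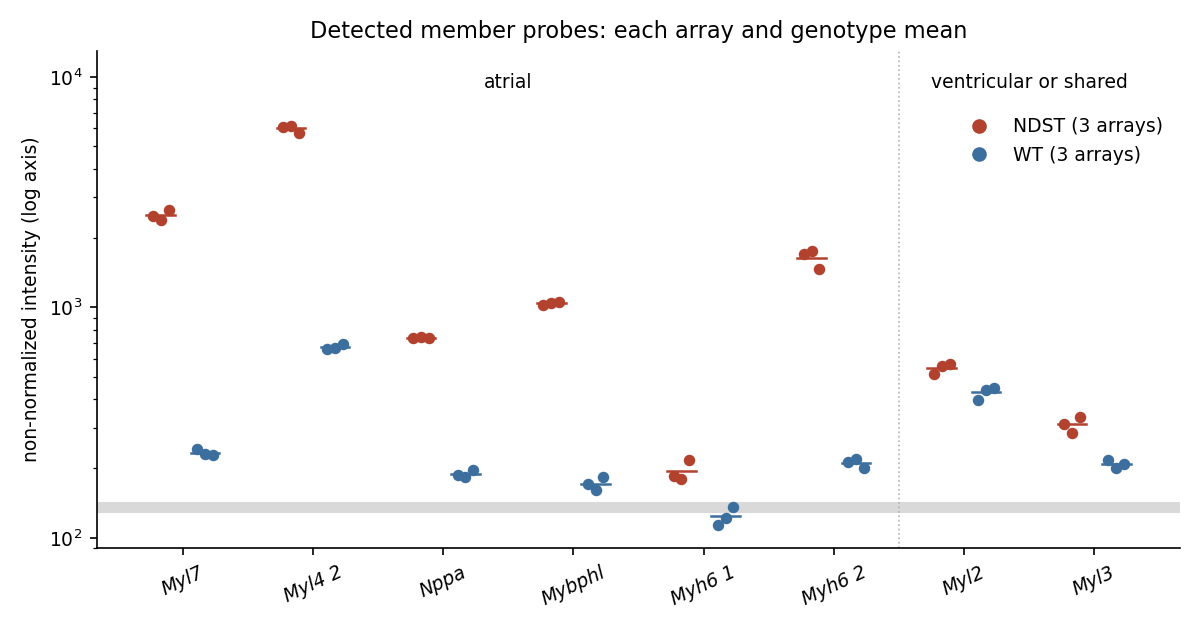
Non-normalized intensity (log axis) of the 8 member probes detected on at least 3 arrays, with 3 NDST arrays (red, left) and 3 WT arrays (blue, right) for each probe and a line at each genotype's mean. The grey band spans the median intensities of the 6 arrays, 130.0 to 141.5. Myl4 2 and Myh6 2 are the brighter probes of these genes. The genotypes lie far apart for the atrial probes other than Myh6 1, the dimmer probe of Myh6. They lie closer together for Myh6 1, Myl2 and Myl3.

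Among the light chains, the atrial pair had differences among the largest on the array and the ventricular pair had smaller ones. Myl7 (probe ILMN_2768252), the regulatory chain of the atrium, had intensities of 2487, 2401 and 2638 on the NDST arrays, against 243, 231 and 228 on the WT arrays. The WT values were low but above background on each array, and none came near the NDST values. The difference was 4.16 ± 0.10, or 17.9-fold, and none of the 17954 tested probes had a larger one.

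Myl4, the essential chain of the atrium, had intensities of 6082, 6157 and 5713 on the NDST arrays, against 657, 668 and 693 on the WT arrays, with its probe ILMN_2610744. It was well above background in both genotypes, and the arrays of each lay close together. The difference was 3.33 ± 0.07, or 10.1-fold, and 10 tested probes had a larger one. The second probe of Myl4 (ILMN_1252533), which the platform annotation ties to another cDNA record, read 126, 128 and 131 on the NDST arrays and 125, 128 and 125 on the WT arrays. It was detected on no array of either genotype, so that it reported no difference where the first probe did.

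Myl2, the regulatory chain of the ventricle, was detected on every array with intensities of 514, 555 and 568 in NDST, against 396, 437 and 449 in WT. The genotypes did not overlap, and the lowest NDST value lay above the highest WT value by about as much as the arrays of a genotype differed among themselves. The difference was 0.30 ± 0.08, or 1.23-fold, and 1868 tested probes had a larger one. Myl3, the essential chain of the ventricle, had intensities of 313, 284 and 334 in NDST, against 218, 200.4 and 209.8 in WT. All NDST values were above the WT values, with a difference of 0.83 ± 0.13, or 1.78-fold. Each ventricular light chain was thus present in WT aorta and differed less than its atrial counterpart.

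The promoters of Myl7 and Myl3 are shown because these light chains lie at opposite ends of the differences among the genes past the threshold. Each sequence is the 250 bases before the annotated start, 5′ to 3′ on the gene's strand, from RefSeq on GRCm38.p6. The Myl7 window is chr11:5898783-5899032 on the minus strand and the Myl3 window is chr9:110763428-110763677 on the plus strand. Capitals mark matches, on either strand, to 5 motifs of cardiac and general promoters. These were the CArG box of serum response factor, the MEF2 site, GATAA for GATA factors, CATTCC for TEAD factors and TATAAA, where a MEF2 site can contain a TATAAA.
Myl7: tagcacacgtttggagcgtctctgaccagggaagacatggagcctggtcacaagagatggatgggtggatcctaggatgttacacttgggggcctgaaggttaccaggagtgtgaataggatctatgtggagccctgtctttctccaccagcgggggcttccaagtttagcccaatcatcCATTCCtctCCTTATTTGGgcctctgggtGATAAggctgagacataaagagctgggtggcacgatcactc
Myl3: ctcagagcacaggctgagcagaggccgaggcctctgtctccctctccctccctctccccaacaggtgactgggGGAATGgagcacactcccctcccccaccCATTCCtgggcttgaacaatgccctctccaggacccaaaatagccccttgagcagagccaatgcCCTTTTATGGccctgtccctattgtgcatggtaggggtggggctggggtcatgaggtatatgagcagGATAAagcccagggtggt
Both windows held a CArG box, a GATAA and at least 1 CATTCC, and neither held TATAAA or a MEF2 site. In Myl7 the CArG box began 61 bases before the start and in Myl3 85 bases before it. Of the 32851 windows of the same length in the table, 1.47% held a CArG box, 22.6% GATAA, 12.6% CATTCC, 12.4% TATAAA and 1.69% a MEF2 site. All 10 members had at least 1 window, 12 windows in all, and a CArG box was found in 2 of the members, GATAA in 7, CATTCC in 5, TATAAA in 3 and a MEF2 site in 0. A member was counted if any of its windows matched, so these counts and the shares per window are not in the same unit. The letters describe these windows and do not show binding.

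Of the heavy chains, Myh6 differed strongly and Myh7 was not detected. With its brighter probe (ILMN_2788836), Myh6 had intensities of 1704, 1749 and 1471 on the NDST arrays, against 213, 219.7 and 201 on the WT arrays. The lowest NDST array was still far above the highest WT array, and the difference was 3.80 ± 0.12, or 13.9-fold. The dimmer probe (ILMN_2640008) read 186, 179.5 and 219 in NDST, against 114, 122 and 136 in WT, where no array detected it. From that probe Myh6 was at least 2.42-fold higher, the mean of the NDST arrays set against, on each WT array, the higher of the probe's own value and the lowest level of any detected probe. Both probes pointed the same way, and the dimmer one gave only this bound.

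Myh7 neighbours Myh6 on chromosome 14, with no other protein-coding gene between them, and its 3 probes stayed at background on all 6 arrays. Their intensities were between 110 and 142 over both genotypes and their lowest detection p-value was 0.0502. The differences were 0.05 ± 0.08, -0.04 ± 0.10 and -0.17 ± 0.13. No level of Myh7 could be measured in either genotype at this sensitivity.

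Mybphl, the atrial relative of myosin-binding protein C, had intensities of 1028, 1041 and 1059 on the NDST arrays, against 171, 161 and 184 on the WT arrays. The NDST arrays were nearly equal and the WT arrays were spread more widely on the log scale, close to background. The difference was 3.81 ± 0.14, or 14.0-fold. Mybpc3, the related protein of both chambers and named here after its values were seen, differed by 1.39 ± 0.13.

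**Figure D2:**
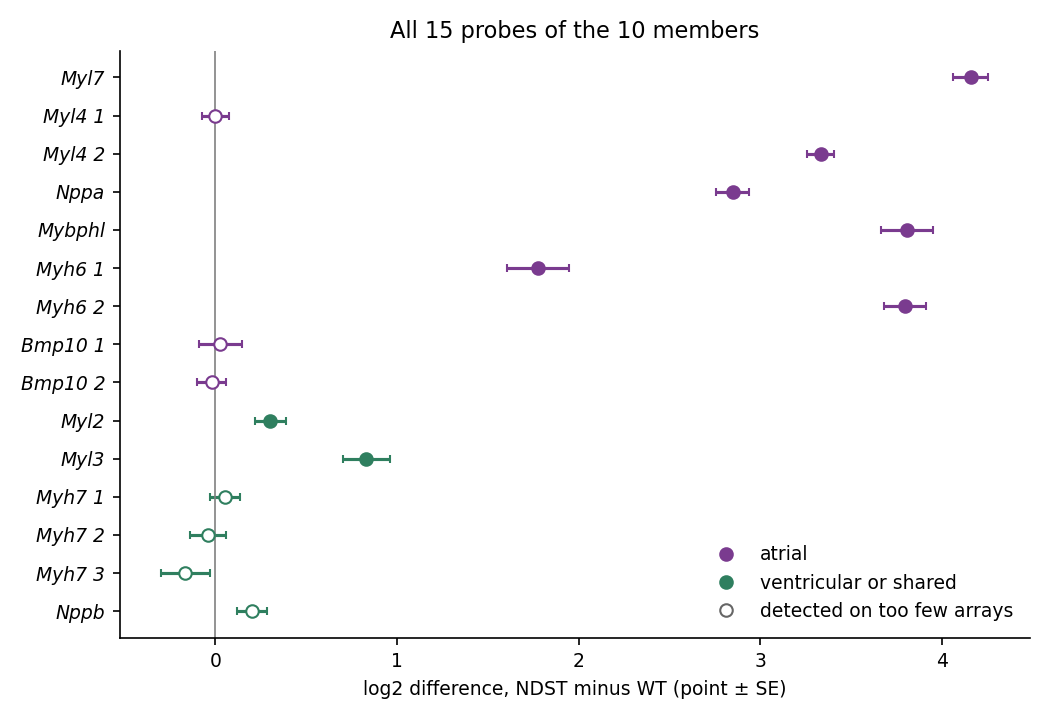
Log2 difference, NDST minus WT, of all 15 member probes with limma's standard error, atrial in purple and ventricular or shared in green, where open points are probes detected on fewer than 3 arrays. Numbers after a symbol tell the probes of 1 gene apart. The filled atrial points lie at 1.78 to 4.16, the filled ventricular or shared points at 0.30 and 0.83, and the open points within 0.20 of 0.

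Of the 2 natriuretic peptide genes, which are neighbours on chromosome 4, Nppa differed and Nppb was not detected. Nppa, which encodes ANP, had intensities of 736, 744 and 734 on the NDST arrays, against 187, 183 and 198 on the WT arrays. It was detected on all 6 arrays, and the difference of 2.85 ± 0.09, or 7.20-fold, was the smallest among the 5 atrial genes by their brighter probes. Nppb, which encodes BNP, read 132, 135 and 146 in NDST, against 122, 130.3 and 132 in WT. Its NDST values lay just above its WT values, by 0.20 ± 0.08, but no array detected it, with detection p-values of 0.0801 at the lowest, so that these values stand for background.

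The promoters of this neighbouring pair are shown because 1 gene differed between the genotypes and the other was not detected. The Nppa window is chr4:148000472-148000721 and the Nppb window is chr4:147985650-147985899, both on the plus strand, with the same motifs in capitals.
Nppa: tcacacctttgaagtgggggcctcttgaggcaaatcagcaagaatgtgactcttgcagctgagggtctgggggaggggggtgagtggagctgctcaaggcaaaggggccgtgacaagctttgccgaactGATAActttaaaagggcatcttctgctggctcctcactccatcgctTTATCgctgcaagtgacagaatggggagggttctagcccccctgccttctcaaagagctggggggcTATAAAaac
Nppb: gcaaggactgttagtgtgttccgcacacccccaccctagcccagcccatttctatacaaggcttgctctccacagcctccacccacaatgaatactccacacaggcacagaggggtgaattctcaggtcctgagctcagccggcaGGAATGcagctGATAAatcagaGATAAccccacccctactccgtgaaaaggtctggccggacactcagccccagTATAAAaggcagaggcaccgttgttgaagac
Both windows held 2 matches to GATAA, in either orientation, and 1 TATAAA, which began 9 bases before the annotated start in Nppa and 31 bases before it in Nppb. The Nppb window held a CATTCC as well, on the opposite strand, and the Nppa window held none. The motif content was thus much alike in the pair.

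Bmp10, the atrial growth factor, was the 1 atrial gene without a detected probe. Its 2 probes read 116 to 141 over the 6 arrays, with detection p-values of 0.176 or more, and differed by 0.03 ± 0.12 and -0.02 ± 0.08. Its receptors and targets were measured. Of 10 detected genes of that list, 0 rose and 0 fell by limma at an adjusted p of 0.05 by their brightest probe (median 0.17), where 7.35% of all tested genes passed in either direction. At an unadjusted p under 0.05, 3 were higher and 2 lower, and up to 6 passed in other settings, the most without background correction. Id2, a target named after its values were seen, had a second probe (ILMN_1236868) of 363, 361 and 384 in NDST, against 198, 216 and 211 in WT, which rose by 1.24 ± 0.08. Its brightest probe stood at 0.50 ± 0.16 and did not pass, so its probes disagreed. The list held Acvrl1, the receptor BMP10 binds most tightly (-0.03 ± 0.11), and the target Id1 (-0.28 ± 0.08, adjusted p = 0.0906), both named after their values were seen.

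Within a genotype, no array was high or low in all members. The deviation of an array from its genotype's mean was not used to choose the genes. Of the 8 detected probes, NDST replicate 3 was highest for 5 and lowest for 3, NDST replicate 1 was highest for 3, and NDST replicate 2 was highest for 0 and lowest for 4. Of the same probes, WT replicate 3 was highest for 5 and lowest for 2, and WT replicate 2 was highest for 0 and lowest for 4. The range over the NDST arrays was 0.02 for Mybphl, at the low end, and 0.58 for the dim probe of Myh6, at the high end. Over the WT arrays it was 0.07 for Myl4 at the low end and 0.56 for Mybphl at the high end. These ranges were below the difference between genotypes for each of the 8 probes, most narrowly for Myl2, with 0.14 in NDST and 0.19 in WT against 0.30.

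**Figure D3:**
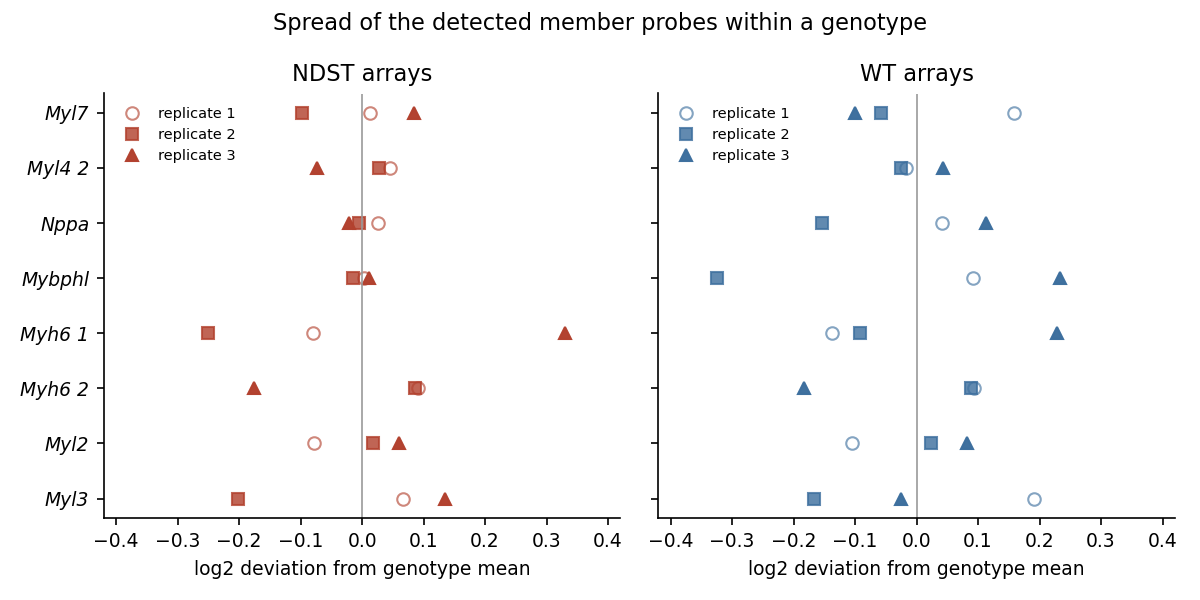
Deviation of each array from the mean of its genotype (log2) for the 8 detected member probes, with NDST arrays at left and WT arrays at right, and a symbol per replicate. The symbols change places from probe to probe, and all deviations lie between -0.32 and 0.33.

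The 6 genes whose values over the 6 arrays were most like those of Myl7, among 10069 genes that were no members, were Cox6a2, Sln, Actc1, Csrp3, Ttn and Tnnc1. Likeness was the root mean square difference of log2 values, each relative to the probe's own WT mean. It was 0.13 for Cox6a2, a subunit of cytochrome oxidase in heart and skeletal muscle, 0.18 for Sln, the sarcolipin that restrains the calcium pump in atria, and 0.23 for Actc1, the cardiac actin. For Csrp3, a protein of the Z-disc, it was 0.29, for the giant spring protein Ttn 0.57 and for the calcium sensor Tnnc1 0.68. On the same measure the members stood at 0.30 for Myh6, 0.31 for Mybphl, 0.60 for Myl4, 0.93 for Nppa, 2.35 for Myl3 and 2.73 for Myl2. The measure includes the size of the difference between genotypes, for which Myl7 was chosen.

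Other genes that atria express more than ventricles did not all differ as the atrial members did. Of 18 listed, 10 had a detected probe, 4 rose and 0 fell (median 0.27), where 4.61% of all tested genes rose and 2.74% fell. Sln had log2 values of 11.70, 11.67 and 11.62 on the NDST arrays, against 7.42, 7.69 and 7.64 on the WT arrays, a difference of 4.08 ± 0.09 (limma adjusted p = 3.47e-06). The other 3 that rose did so by less than 2-fold. They were Stard10, Dkk3 and Gja5. Stard10, a lipid transfer protein, rose by 0.82 ± 0.12, and its dimmer probe stood at 0.63 ± 0.20 and did not pass. Dkk3 rose by 0.51 ± 0.11, with a second probe that passed at 0.39 and a dimmer one at 0.20 that did not. Gja5, a connexin of atria and of arterial endothelium, rose by 0.47 ± 0.08, its 2 other probes not past the threshold. Without 1 of the arrays, 1 to 3 genes of the list passed. Kcna5, an atrial potassium channel, differed by 0.28 ± 0.17 and Kcnk3 by -0.12 ± 0.09, both named after their values were seen. Pam, named likewise, was lower by 0.46 ± 0.11 and narrowly missed the threshold (limma adjusted p = 0.0506). Tbx5, Kcnj3, Kcnj5, Sbk2, Sbk3 and Chrm2 had no probe detected on 3 arrays.

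Genes that ventricles express more also included large rises. Of 11 listed, 6 had a detected probe, 3 rose and 0 fell by their brightest probe (median 0.38), and 5 passed by their dimmest. The difference lay in Hey2 and Scn4b, named after their values were seen, whose dimmer probes rose by 0.54 ± 0.12 and 0.66 ± 0.15 while the brighter stood at 0.23 and -0.18. Both probes of Scn4b were close to background. The dimmer one read 145, 163 and 154 in NDST, against 126, 133 and 134 in WT. Pln, the phospholamban that restrains the calcium pump and is more abundant in ventricles, was detected on every NDST array and on no WT array. It was at least 4.06-fold higher, and since its probe entered the test only through the NDST arrays, its place among the 3 is not independent of its difference. Fhl2, a protein of the sarcomere, rose by 1.90 ± 0.14, with its second probe at 0.48 ± 0.10, and Lbh rose by 0.53 ± 0.07. Irx3, named after its values were seen, stood at -0.33 ± 0.13 and did not pass. Irx4, a transcription factor of the ventricle, had no probe detected on 3 arrays, nor had Hand1, Irx5, Kcnip2 or Kcnd2. The medians of these lists of other chamber genes, 0.27 and 0.38, were thus close, unlike those of the classes of members, and this contrast was not tested.

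Nearly all detected sarcomere genes that both chambers use rose. Of 20 listed, 14 had a detected probe, 13 rose and 0 fell (median 2.10), Myom2 and Xirp2 among them by probes that only NDST arrays detected. Actc1 rose by 3.84 ± 0.08 (limma adjusted p = 3.04e-06), Csrp3 by 3.85 ± 0.11, Tnnc1 by 3.23 ± 0.08 and Ankrd1, a stretch-responsive titin partner, by 3.13 ± 0.11. Their dimmer probes rose by less, at 2.49 for Actc1, 2.97 and 2.69 for Csrp3 and 2.76 for Ankrd1. The other genes of the list differed widely in size, and those given next were named after their values were seen. Actn2, the cross-linker of the Z-disc, rose by 2.06 ± 0.08, Tnni3, the inhibitory troponin of the heart, by 1.28 ± 0.14 and Tcap by 0.97 ± 0.09. Myom1, a protein of the M-band, was the 1 detected gene that did not pass (0.07 ± 0.08). Of the probes of Ttn, 1 rose by 3.40, 1 by 1.37 and the other stood at -0.04. By their brightest probes, the detected atrial members thus lay above the median of these genes, and only Myl7 lay above all of them. Nppa, at 2.85, lay below Csrp3, Actc1, Ttn, Tnnc1 and Ankrd1. Myl2 and Myl3 lay below most genes of the list.

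Of the proteins that fold and phosphorylate cardiac myosin, 4 of 8 listed were detected, 2 rose and 0 fell (median 0.35). Mylk3, the kinase of cardiac light chains, was detected on no WT array and was at least 1.57-fold higher. Unc45b, the myosin chaperone of striated muscle, rose by 0.45 ± 0.09. Without any 1 NDST array 0 genes of this list passed by limma, so that Unc45b lost its call as well, and 1 passed without any 1 WT array. Of the genes around the natriuretic peptides, 10 of 12 were detected, and by their brightest probe 1 rose and 0 fell (median -0.02). Mme, the protease that degrades the peptides, named after its values were seen, had a dimmer probe that fell by 0.74, with its other probes at -0.27 and -0.32 and not past the threshold. The 1 that rose was Corin, the protease that cuts the ANP precursor on heart muscle cells. Its log2 values were 7.29, 6.93 and 7.01 on the NDST arrays, against 4.52, 4.75 and 4.77 on the WT arrays, none of which detected it, and it was at least 4.32-fold higher. Probes detected on NDST arrays only, as for Corin, Mylk3 and Pln, entered the test through those arrays and were no longer tested once any NDST array was left out. The receptors did not pass: Npr1, the receptor of ANP, differed by -0.04 ± 0.19 and Npr3, the clearance receptor, by -0.05 ± 0.09, both named after their values were seen.

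**Figure D4:**
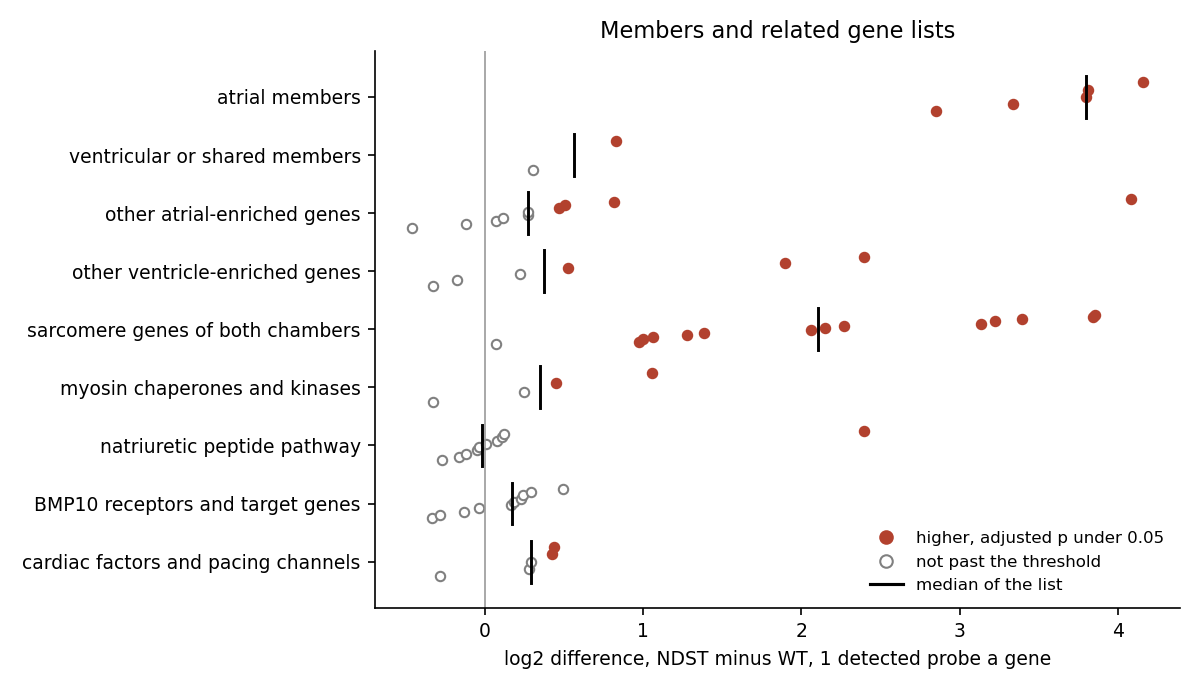
Log2 difference, NDST minus WT, of each gene with a detected probe, by list, with 1 probe a gene; filled points passed an adjusted p of 0.05 upwards, open points did not pass, and black lines are list medians. The atrial members (median 3.80) and the sarcomere genes of both chambers (median 2.10) lie to the right, while the other lists have medians between -0.02 and 0.57. Single genes of the other atrial-enriched, other ventricle-enriched and natriuretic lists lie far to the right of their medians.

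Transcription factors and pacemaker channels of the heart had small differences where they could be measured. Of 12 listed, 5 had a detected probe, and by their brightest probe 2 rose and 0 fell (median 0.29). The 2 were Gata6 (0.44 ± 0.08, limma adjusted p = 0.0255) and Mef2c (0.43 ± 0.08, adjusted p = 0.0259), and both are also made by vascular cells. A dimmer probe of Gata6 did not pass. Of the dimmer probes of Mef2c, 1 rose by 0.64 ± 0.10 and the other did not pass. Tbx3, a factor of the sinus node, named after its values were seen, had 2 dimmer probes that fell, by 0.61 and by 0.34. Both were close to background, at 135 to 150 and 146 to 153 in NDST, against 146 to 160 and 150 to 155 in WT. The brightest probe of Tbx3 stood at -0.28 ± 0.09 and another at 0.14 ± 0.12. Without 1 of the arrays, 0 or 1 genes of the list passed. Nkx2-5, Gata4, Tbx20, Hand2, Shox2 and Hcn4 had no probe detected on 3 arrays.

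Markers of other tissues were counted beside the members. The summed intensities given for them were not corrected for background, and the median probe of an array read 130.0 to 141.5. The fast skeletal muscle list had 3 of 13 genes detected, with a summed intensity of 4547 to 4738 on NDST arrays and 3577 to 3680 on WT arrays. Most of this sum came from the brightest probe of Myl1. Of its 12 genes on the array, Myh1, Myh4, Tnnt3, Pvalb and Myoz1 were detected on no array. Actn3, Tnni2, Ryr1 and Tnnc2 were detected on at least 1 array but on fewer than 3. Mylpf (0.28 ± 0.15) and Casq1 (0.40 ± 0.21), named after their values were seen, were detected and did not pass. The 1 gene of that list that rose was Myl1, a light chain of fast muscle, and its 3 probes disagreed. The brightest rose by 0.37 ± 0.07, another by 3.19 ± 0.09 and the dimmest fell by 0.45. Of 7 genes of slow and fetal skeletal muscle, 2 were detected and 0 passed by limma (Tnnt1 0.74 ± 0.18, adjusted p = 0.0531), 1 with an unadjusted p under 0.05. Their summed intensity was 300.1 to 336 in NDST and 274 to 294 in WT, for 2 probes close to background. Tnni1, Myod1 and Myf6 were detected on no array.

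Airway genes differed too. Of 13 airway and alveolar markers 3 were detected, 1 rose and 1 fell, and their summed intensity was 1413 to 1452 in NDST and 719 to 758 in WT. Scgb1a1, the secretoglobin of club cells, rose by 2.38 ± 0.07 and Cyp2f2, of the same cells, fell by 0.68, while Sftpc, Sftpa1, Epcam, Foxj1, Krt5 and Nkx2-1 were detected on no array. Of 8 endothelial markers 7 were detected and 1, Vwf, rose (0.45 ± 0.09, with Pecam1 at 0.18 ± 0.08). Of these 7, 6 had a higher mean in NDST (median 0.22), 3 of them with an unadjusted p under 0.05. Their sums were 5727 to 5760 in NDST and 4502 to 4822 in WT. Of 4 detected mesothelial and epicardial markers 0 passed by limma (Upk3b 0.24 ± 0.12), and 0 had an unadjusted p under 0.05, with sums of 758 to 774 in NDST and 683 to 712 in WT. Of brown adipocyte markers 5 were detected and 0 passed by limma (Cidea 0.02 ± 0.08), 2 with an unadjusted p under 0.05, with sums of 62230 to 63935 in NDST and 67801 to 72804 in WT. Of white and shared adipocyte markers 5 were detected and 0 passed by limma (Adipoq 0.00 ± 0.09), 1 with an unadjusted p under 0.05, with sums of 13825 to 14007 in NDST and 13227 to 14417 in WT. The part of other tissues in the values of the chamber genes was not tested.

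The size of the differences moved with the treatment of background, and the order of the classes stayed in each setting tried. Over the alternatives the atrial median was 2.74 to 4.00 and the ventricular or shared median was 0.13 to 0.73. The value of 0.13 was over all probes, among them those of Myh7 and Nppb, which no array detected. Myl7 differed by 9.23-fold to 20.0-fold over these settings, and Myl2 by 1.17-fold to 1.37-fold. The gap between the medians was 3.23 as reported and at the lowest 2.41, in the authors' deposited processed values.

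**Figure D5:**
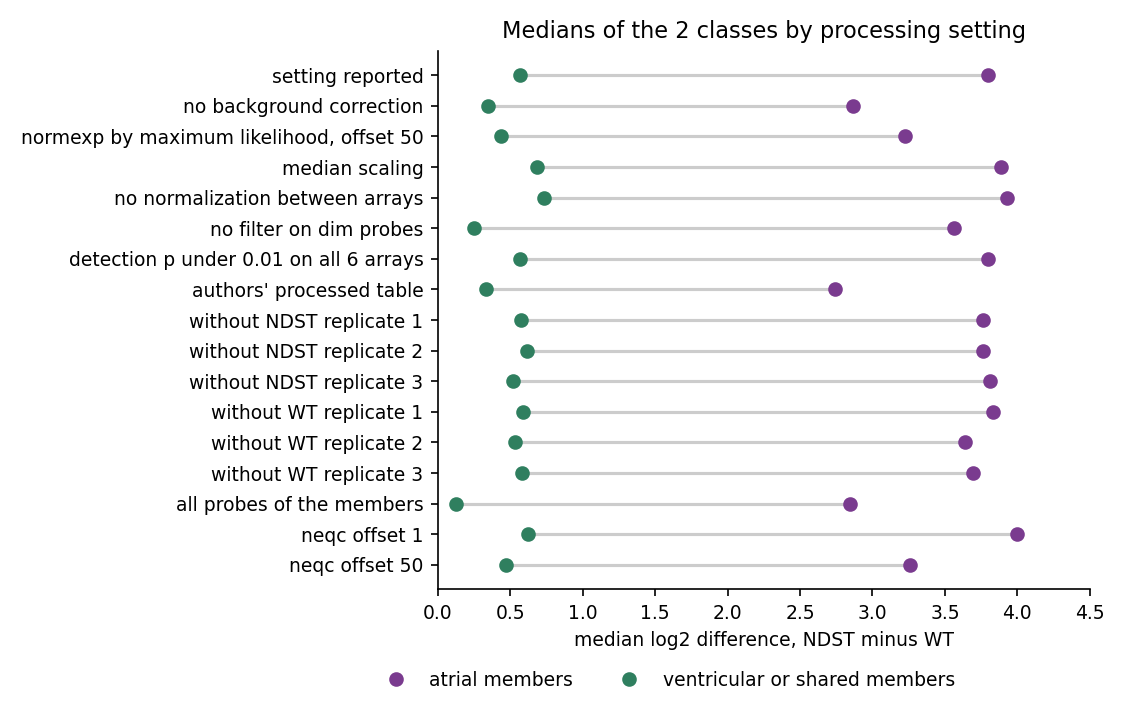
Median log2 difference, NDST minus WT, of the atrial members (purple) and of the ventricular or shared members (green) under the reported setting and the alternatives. The replicate block and the intensity trend, which change only the test, and the dimmest kept probe of a gene are not shown. The atrial median lies at 2.74 or above and the other at 0.73 or below in each setting.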

How the data were processed

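Aortic RNA of 3 NDST and 3 WT samples was measured on 1 array each. Values came from a deposited non-normalized table. Its columns give, for every probe and array and per the file headers, the mean bead intensity (linear) and a detection p-value. A second deposited table holds the authors' processed intensity values of unstated scaling (medians 134.22 to 134.38 for NDST and 135.82 to 135.94 for WT), and served as an alternative after log2(value + 16). The submitters' processing notes name GenomeStudio. Ndst1 was not analysed here.

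Intensities were corrected with limma 3.58.1 in R 4.3.3 by the steps of neqc (normexp with background from the detection p-values, offset 16, quantile normalization, log2). The offset understates fold changes of dim probes. A probe was kept if 3 or more of the 6 arrays detected it (p under 0.05), which left 17954 of 45281. NDST and WT were compared by lmFit and eBayes (two-sided). P-values were adjusted by Benjamini-Hochberg across the kept probes, with calls at 0.05. P-values reflect only how these samples vary, which may be technical, and the number of arrays limits the precision (median standard deviation within a genotype 0.13). Probes were named from the platform annotation (34885 with 1 gene, 18 with several, 10378 with none), with 10 symbols updated through RefSeq. Each gene stood for its brightest kept probe. The steps were tested on simulated data.

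The members and lists were chosen with earlier results of these data known. Genes named were every member, up to 4 called genes with the smallest p per related list, up to 2 called genes and the brightest per marker list, and the 6 genes most like Myl7; others are said to be chosen after their values were seen.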

Additional observations from a re-analysis of the deposited data

How the results depend on the processing

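The number of arrays and the closeness of WT values to background limit the precision. The 1336 probes that passed became 3048 without background correction, 2357 with normexp by maximum likelihood, 2711 without normalization between arrays, 722 without a filter, 2017 with a detection p under 0.01 on all 6 arrays, 3535 in the authors' processed values, 364 with the replicate number as a block (deviations of arrays sharing a number correlated at -0.01 to 0.02, so the numbers were not taken as pairs) and 360 to 557 without 1 array. Alternatives added after the data were seen gave 2190 with an offset of 50 and 3075 with an intensity trend. The share higher was 58.1% as reported, 82.9% with median scaling, 88.9% with arrays not normalized to each other (median of all kept probes 0.13), and 40.8% in the authors' processed values. Members called higher were 6 as reported and 5 to 7 in 17 alternatives, with Myl3 lost without NDST replicate 1, NDST replicate 3 or WT replicate 3 and Myl2 gained in 8 settings; no member called as reported changed sign in these.

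The atrial median, 3.80 as reported, was 2.86 without background correction, 3.22 with normexp by maximum likelihood, 3.93 without normalization between arrays, 3.56 without a filter, 2.74 in the authors' processed values, 2.85 over all probes of the members, 4.00 with an offset of 1, 3.26 with an offset of 50 and 3.64 to 3.83 without 1 array. The ventricular or shared median, 0.57 as reported, was 0.35, 0.43 and 0.69 without background correction, with normexp by maximum likelihood and with median scaling. It was 0.73 without normalization between arrays, 0.25 without a filter, 0.33 in the authors' processed values, 0.13 over all probes and 0.47 with an offset of 50. The gap, 3.23 as reported, was 2.52 without background correction, 2.79 with normexp by maximum likelihood, 2.41 in the authors' processed values, 2.72 over all probes, 3.38 with an offset of 1 and 2.79 with an offset of 50. NDST replicate 3 was highest for 5 of 8 member probes, for 2 with median scaling and for 10 of 15 without a filter. Of the related lists 25 genes passed, and 13 to 20 without 1 array, 15, 14 and 13 of them without NDST replicate 1, 2 and 3, and 17 with the replicate block. Leaving out any NDST array drops probes detected on NDST arrays only, among them Corin and Pln. The medians without a filter and over all probes include member probes that no array detected, among them those of Bmp10, Myh7 and Nppb. The cause of the other shifts was not tested, beyond the fewer arrays or probes that an alternative leaves.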
